A study of Mus musculus with 12 samples.

Results

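A set of 690 genes was still climbing in whole mouse lungs on postnatal day 8. A gene entered the set when its lowest P8 library lay above the highest library of E15.5, E18.5 and P5 on the scale of CPM, the reads of a gene scaled to the mapped reads of the library, when its P8 mean was at least 1.5 times its P5 mean and 2 CPM or more, and when P8 replicates 1 and 2 were each under 3 times P8 replicate 3. Of the 16152 genes in the count table, 690 met the rule. The rule used the P8 values against each other time-point, so every difference between P8 and an earlier time-point below is a description and carries no test. That the P8 libraries lie above all earlier ones holds for every member by the rule, also where it is stated for a single gene.

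The libraries came from whole lungs of wild-type C57BL/6 mice before birth (E15.5 and E18.5) and after it (P5 and P8, days of age), with 3 replicates at each time-point and 12 libraries in all. No allele or agent differed between the groups. The replicates of a time-point were littermates, so litter and time-point cannot be told apart, and the p-values below measure the spread within litters. Reads counted on genes ranged from 41337443 to 53901957 per library. Each tissue was profiled in bulk, so more cells of a type and more RNA per cell cannot be told apart. The labelled tissue carried its defining markers in each library: *Nkx2-1*, the transcription factor of lung epithelium, lay between 135.8 and 236.6 CPM, and *Sftpc*, the surfactant protein of type 2 alveolar cells, at 504.6 CPM or more.

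Birth exposes the lung to air, microbes and inhaled chemicals. The airways are lined by club cells, which secrete small defence proteins and metabolise xenobiotics, and by ciliated cells, whose motile cilia beat to move mucus. In the first postnatal weeks the distal air sacs are subdivided by septa that carry elastin fibres, while leukocytes settle in the tissue and the mesothelium covers its surface. The members are described below by these roles.

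P8 replicates 1 and 2 were high in markers of thymocytes and of stratified squamous epithelium. Whether this RNA came from tissue beside the lung or from cells within it was not tested. Their summed CPM of 11 thymocyte markers was 395.4 and 689.5, against 139.0 in P8 replicate 3 and 124.9 to 180.8 in the 9 earlier libraries. Keratins of stratified squamous epithelium moved in the same way, with *Krt13* at 333.8 and 255.7 CPM in P8 replicates 1 and 2 and 0.888 CPM in replicate 3. At P5 *Krt13* was at 0.0161 to 0.0822 CPM, and at E15.5 at 0.629 to 1.02 CPM. *Krt4* was at 2.25 CPM in P8 replicate 3 and at 0.599 to 0.805 CPM at P5. The 3-fold limit in the rule kept out 41 genes that had met its other conditions, and no thymocyte, T cell or squamous marker of the lists was a member. That limit removes genes found mainly in replicates 1 and 2. The squamous list held only 7 measured genes, and 10 genes of cornified or stratified epithelium were members, as described below. Liver-type RNA also differed, since 12 hepatocyte genes summed to 20.6, 156.1 and 57.1 CPM in P8 replicates 1, 2 and 3 and to 7.64 CPM at most in an earlier library. Skeletal muscle markers reached 707.3 CPM in P8 replicate 1 and 215.1 CPM in P5 replicate 3. Before birth, 11 cardiac muscle genes summed to 1276 and 1581 CPM in E15.5 replicates 1 and 2, against 68.0 CPM in E15.5 replicate 3 and 453.5 CPM at most in any other library. The part of these tissues in the members' levels was not tested beyond the values given with each group.

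**Figure D1:**
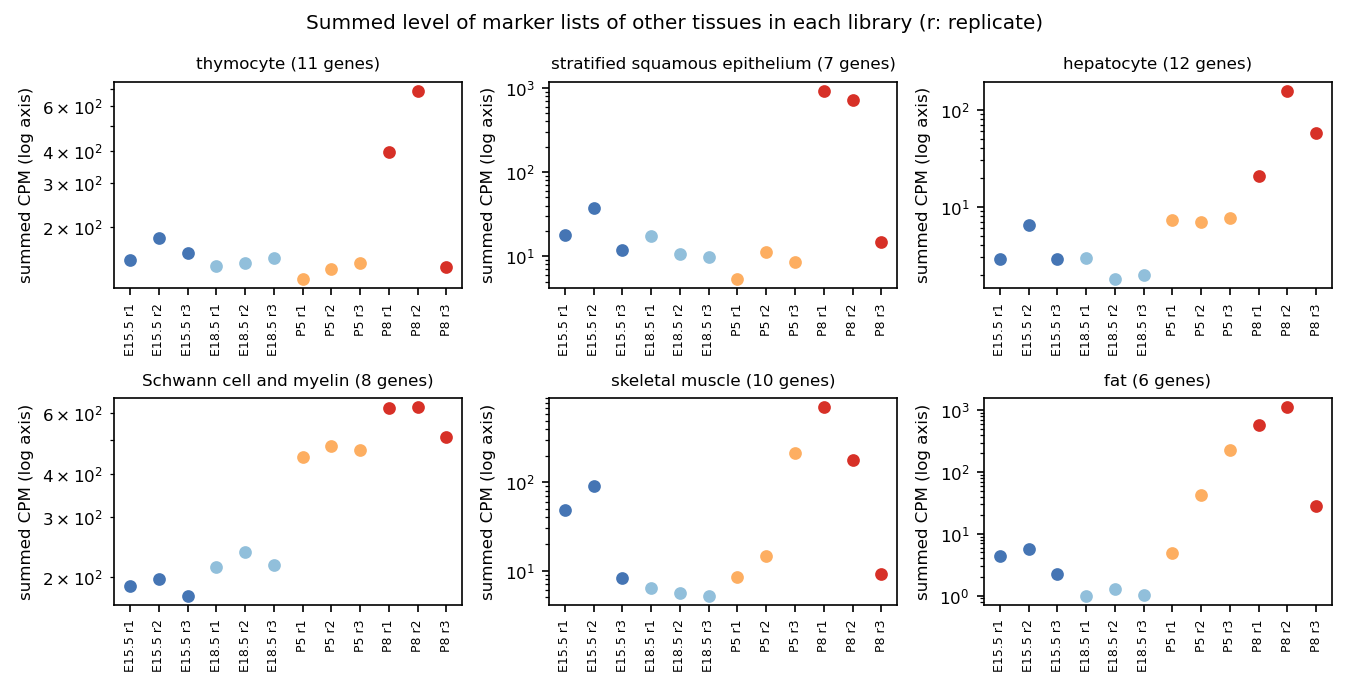
Summed CPM of 6 marker lists of other tissues in each of the 12 libraries, on a log axis; each point is 1 library. P8 replicates 1 and 2 stand far above all other libraries for thymocyte and squamous markers, while P8 replicate 3 sits at 139.0 and 14.7 CPM.

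Replicate 3 was lower in thymocyte and squamous markers, though not free of them, and was therefore read on its own as well. It was at least 1.5 times the P5 mean in 527 of the 690 members, with a median of 1.79 over the P5 mean against 1.83 in replicate 1 and 2.15 in replicate 2. The highest P8 value was in replicate 2 for 452 members, in replicate 3 for 131 and in replicate 1 for 107. With replicate 3 as the only P8 library, 666 genes met the remaining conditions, and 515 of them were among the 690.

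**Figure D2:**
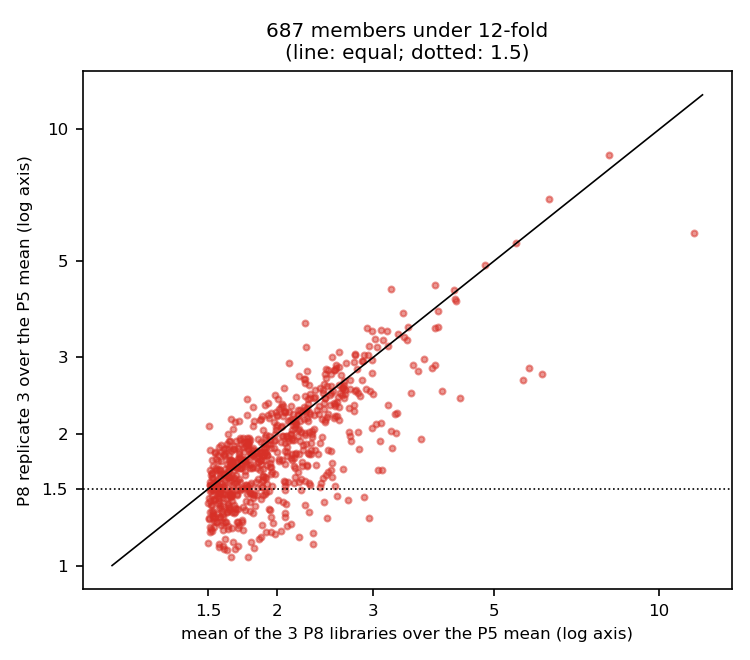
P8 replicate 3 over the P5 mean, against the mean of the 3 P8 libraries over the P5 mean, for the 687 members under 12-fold; both axes are log axes and each point is 1 gene. Points under the dotted line are the members in which replicate 3 alone was below 1.5 times the P5 mean.

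The members were mostly genes of modest level. Their median P8 mean was 8.58 CPM, against 21.1 CPM for all genes of the count table, and 679 of them (98.4%) were protein-coding, against 89.6% of all genes. A P8 mean of 100 CPM or more was reached by 32 members and 1000 CPM or more by 6. Together they took 0.768% to 0.856% of the counted CPM in the embryonic libraries, 2.08% to 2.26% at P5 and 3.81% to 4.18% at P8. The ratio of the P8 mean to the P5 mean had a median of 1.91 and was between 1.5 and 2 for 386 members, between 2 and 3 for 254, between 3 and 5 for 40, between 5 and 10 for 6 and above 10 for 4. Per kilobase of exon, the members with the highest P8 level were *Scgb1a1*, *Scgb3a2*, *Cbr2* and *Eln*, at 11460, 1203, 815.4 and 746.7 CPM per kb.

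The question put to the earlier time-points was when the rise began. Between E18.5 and P5, across birth, 497 of the 690 members rose by the edgeR quasi-likelihood test (log2 fold change above 1 and FDR under 0.05), which is 72.0% of the set against 17.5% of the 15994 genes tested. None (0) fell by this test, nor by DESeq2, against 9.34% of all genes, although 5 members were lower at an edgeR FDR under 0.05 without the cutoff of fold change. The members' median log2 fold change was 1.89, where that of all genes tested was 0.00 to 2 decimals. In 528 members (76.5%) every P5 library was above every embryonic library, a pattern that 30.3% of all genes showed. The rule caps the level of each earlier library at that of P8, so these shares are set beside a second group: of 1043 tested genes that were also highest in all 3 P8 libraries but were not members, 433 (41.5%) rose across the same interval. Of these 1043 genes 0 fell, so the absence of falls is not read as a trait of the members.

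Before birth fewer members changed. Between E15.5 and E18.5, 85 members rose (12.3%, against 1.59% of all genes tested) and 19 fell (2.75%, against 1.46%), and 585 were not called. Their median log2 fold change was 0.12. The number of rising genes depended on the fit, since a fit of the E15.5 and E18.5 libraries alone called 23 higher and 7 lower, a fit without E18.5 replicate 2 called 56 and 10, and a fit without E15.5 replicate 3 called 34 lower. Over the whole span from E15.5 to P5, 505 members rose (73.2%, against 19.5% of all genes) and 1 fell, *Bnc1* (0.145%, against 12.4%). Of the 1043 non-members highest at P8, 473 (45.35%) rose over that span and 0 fell.

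Read over both intervals, 404 members were not called before birth and rose across it. Another 78 rose in both intervals, 181 were called in neither, 15 fell before birth and rose across it, 7 rose only before birth by these calls and 4 fell before birth with no later call. The members' share of the E18.5 to P8 difference in mean CPM that was already present at P5 had a median of 38.5%, with quartiles at 26.6% and 49.0%. The rule demands a minimum ratio of the P8 mean to the P5 mean, which caps this share in advance. The share is therefore a description of the members and cannot tell when their rise began. At P5 to P8 itself, the interval the rule used, 227 members passed the cutoffs (32.9%, against 2.88% of all genes), from which nothing is read.

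**Figure D3:**
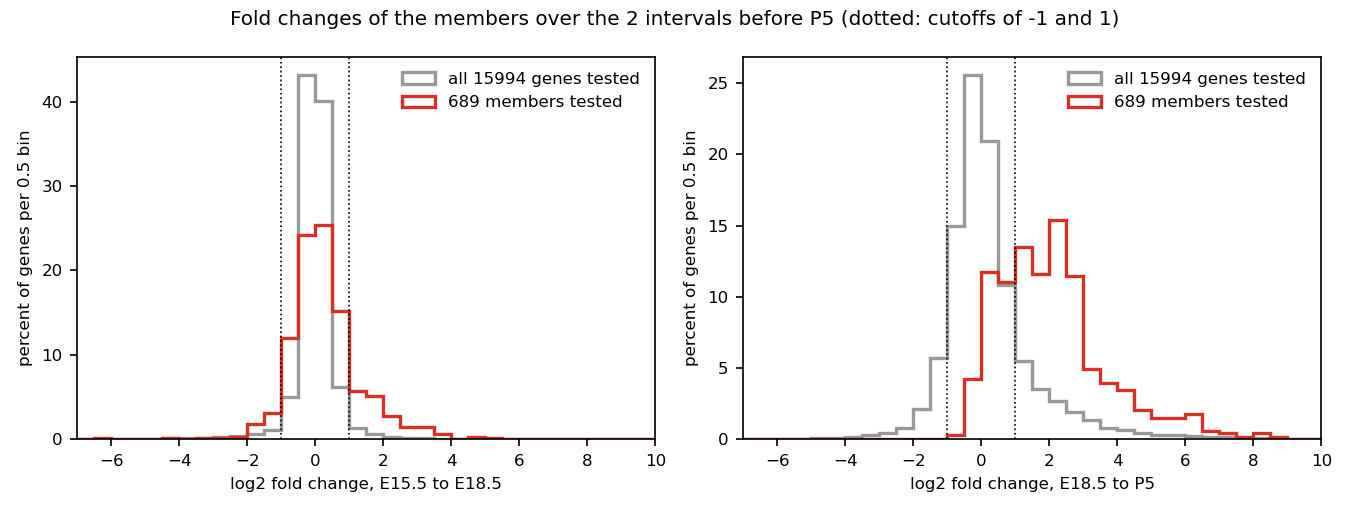
Share of genes in bins of 0.5 of the log2 fold change from E15.5 to E18.5 (left) and from E18.5 to P5 (right), for all 15994 genes tested (grey) and the 689 members tested (red); dotted lines mark -1 and 1. The members lie near the other genes before birth (median 0.12) and are shifted to the right across it (median 1.89).

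Per kilobase of exon, airway secretory genes held the top 3 levels. All 15 members assigned to airway secretory cells rose from E18.5 to P5, beside 72.0% of all members and 17.5% of all genes tested. Of these, 4 (*Scgb3a2*, *Hp*, *Slc6a14* and *Agr3*) had also risen from E15.5 to E18.5, beside 12.3% of all members. Of 10 measured genes of the club cell list, 7 were members and all 7 rose. Over the whole list, 9 genes rose from E18.5 to P5 and 1 fell. *Scgb1a1*, the major secretoglobin of club cells, lies at chr19:9083636-9087958 in mm10 and read, in CPM for replicates 1, 2 and 3, 12.1, 11.3 and 12.3 (E15.5), 12.3, 14.5 and 12.6 (E18.5), 3241, 3597 and 3878 (P5), then 4972, 5360 and 6029 (P8). The embryonic libraries all lay near the same low level, and the P5 libraries were far above them. The step across birth was a log2 fold change 8.17 ± 0.11 (SE), edgeR FDR = 3.32e-13, while the P8 mean of 5454 ± 535 CPM (SD, n = 3) was 1.53 times the P5 mean of 3572 ± 319 CPM.

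*Scgb3a2*, a second secretoglobin, was already higher at E18.5. Its CPM values were 28.6, 23.2 and 20.5 (E15.5), 75.1, 78.6 and 41.1 (E18.5), 519, 797 and 759 (P5), then 1016, 1262 and 898 (P8). E15.5, E18.5 and P5 were separated in their library values, with E18.5 replicate 3 closest to the E15.5 level, and both steps passed the test (log2 fold change 1.44 ± 0.24 (SE), edgeR FDR = 0.00225, then log2 fold change 3.49 ± 0.25 (SE), edgeR FDR = 1.05e-07). *Cbr2*, a carbonyl reductase of club cells, was called only across birth (log2 fold change 5.51 ± 0.24 (SE), edgeR FDR = 2.74e-09) and went from 672 ± 73.7 CPM at P5 to 1082 ± 107 CPM at P8. *Hp*, which encodes haptoglobin, and *Gabrp*, a GABA receptor subunit of airway epithelium, rose as well (log2 fold changes 4.01 ± 0.24 and 6.00 ± 0.32, edgeR FDR = 2.68e-08 and 1.32e-08). *Gabrp* stood at 16.2, 19.9 and 16.8 CPM at P5 and at 40.5, 46.2 and 42.6 CPM at P8.

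*Bpifb1*, a secreted defence protein of large airways, had the fourth highest ratio of P8 to P5 in the set. It measured 0.565, 0.472 and 0.610 (E15.5), 0.493, 0.421 and 0.494 (E18.5), 13.8, 18.6 and 7.63 (P5), then 172, 215 and 77.2 (P8) CPM. P8 replicate 3 was the lowest of the P8 libraries, and the ratio of the means was 11.6. From E18.5 to P5 it rose by a log2 fold change 4.91 ± 0.48 (SE), edgeR FDR = 1.47e-06. *Cxcl17*, a mucosal chemokine, also had its lowest P8 value in replicate 3 (11.8, 15.49 and 8.05 CPM, after 3.23, 4.25 and 3.91 CPM at P5; E18.5 to P5 log2 fold change 6.41 ± 0.54 (SE), edgeR FDR = 3.89e-07). The secretoglobin *Scgb3a1* was not a member, since its P8 libraries (293.3, 312.6 and 70.3 CPM) overlapped its P5 libraries (8.82, 147.7 and 82.0 CPM). *Chia1*, an acidic chitinase, stood in the P8 libraries at 32.4, 30.03 and 38.1 CPM, after 15.6, 19.6 and 14.2 CPM at P5 (log2 fold change 5.78 ± 0.27 (SE), edgeR FDR = 4.65e-09 from E18.5 to P5).

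Motile cilium genes made up the largest group, with 92 members, or 13.3% of the set. They included 10 of 14 measured axonemal dynein heavy chains, 20 of 30 measured genes with a Cfap symbol, 5 of 7 with an Rsph symbol (radial spokes) and the 3 with a Drc symbol (nexin-dynein regulatory complex). The group was chosen by function after its values had been seen. Among its 92 members, 42 rose from E15.5 to E18.5 (45.7%, against 7.19% of the 598 members outside it). From E18.5 to P5, 68 rose, beside 72.0% of all members, and none fell in either interval. The count before birth was the less stable one: it ranged from 24, without E18.5 replicate 2, to 52 when 1 library was left out, and was 12 in a fit of the 2 embryonic time-points alone.

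The promoters of these genes were searched for GTTGCCA, part of the X-box that RFX factors bind, on both strands of the RefSeq windows (GRCm38.p6, 250 bases before to 50 bases after the start). Of the 70 motile cilium members with a window, 16 (22.9%) held it, against 51 of all 524 members with a window (9.73%) and 1358 of 27025 genes with a window (5.03%). Of the members outside this group and outside the class I and interferon groups described below, 35 of 440 (7.95%) held it. The windows of 4 such members are shown because they carry the motif that was searched, in capitals, in the direction of transcription. *Lrrc23* encodes a radial spoke protein, *Dnah10* a dynein heavy chain of the inner arms, *Cfap44* a ciliary protein and *Hydin* a protein of the central pair.
Lrrc23, chr6:124779678-124779977, minus strand: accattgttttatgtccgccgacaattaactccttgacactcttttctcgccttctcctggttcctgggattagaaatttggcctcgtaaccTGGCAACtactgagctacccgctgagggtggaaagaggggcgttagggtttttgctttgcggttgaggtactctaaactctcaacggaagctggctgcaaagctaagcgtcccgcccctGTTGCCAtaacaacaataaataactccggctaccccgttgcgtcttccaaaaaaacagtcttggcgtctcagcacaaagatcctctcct
Dnah10, chr5:124724835-124725134, plus strand: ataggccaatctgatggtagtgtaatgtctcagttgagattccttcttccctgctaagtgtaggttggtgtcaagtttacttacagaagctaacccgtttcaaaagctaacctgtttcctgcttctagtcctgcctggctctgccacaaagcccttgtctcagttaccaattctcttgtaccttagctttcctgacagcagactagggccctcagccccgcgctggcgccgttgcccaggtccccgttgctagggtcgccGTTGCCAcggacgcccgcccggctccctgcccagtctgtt
Cfap44, chr16:44394549-44394848, plus strand: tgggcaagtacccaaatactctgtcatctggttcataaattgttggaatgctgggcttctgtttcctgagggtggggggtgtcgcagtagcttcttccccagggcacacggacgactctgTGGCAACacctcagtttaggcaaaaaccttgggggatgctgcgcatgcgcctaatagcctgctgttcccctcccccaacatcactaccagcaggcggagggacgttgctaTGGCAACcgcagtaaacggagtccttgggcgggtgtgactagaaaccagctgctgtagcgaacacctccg
Hydin, chr8:110266727-110267026, plus strand: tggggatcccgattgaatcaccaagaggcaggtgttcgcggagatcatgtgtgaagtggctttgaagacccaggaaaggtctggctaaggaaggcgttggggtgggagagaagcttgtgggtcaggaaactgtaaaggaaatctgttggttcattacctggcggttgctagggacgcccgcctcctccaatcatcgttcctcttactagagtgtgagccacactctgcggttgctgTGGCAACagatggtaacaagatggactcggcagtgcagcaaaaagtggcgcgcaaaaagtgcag
Where the motif stands as TGGCAAC, it is on the opposite strand. The forkhead motif TGTTTAC and the AP-1 motif TGACTCA, searched in the same way, were in 2.86% and 5.71% of the windows of motile cilium members, and in 4.05% and 5.95% of those of all genes. In the 440 members outside these groups they were in 4.32% and 7.95%. A match is a description of the sequence and shows no binding.

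*Foxj1*, the transcription factor that drives the motile cilium programme, changed before birth. Its CPM values were 11.7, 7.21 and 7.20 (E15.5), 42.0, 36.6 and 17.2 (E18.5), 33.1, 40.0 and 34.8 (P5), then 72.3, 80.5 and 59.0 (P8). E18.5 was above E15.5 in every library, P5 overlapped E18.5, and P8 was above both. The prenatal step passed the test (log2 fold change 1.88 ± 0.29 (SE), edgeR FDR = 0.00176) and the step to P5 did not. *Zmynd10*, a factor in dynein assembly, and *Spag17*, of the central pair, were likewise called only before birth.

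*Dnah5*, the outer-arm dynein heavy chain, measured 0.194, 0.0590 and 0.138 (E15.5), 1.42, 1.53 and 0.256 (E18.5), 6.57, 8.48 and 6.82 (P5), then 17.3, 29.0 and 18.4 (P8) CPM, with each time-point above the one before and no overlap. It rose in both intervals (log2 fold change 2.98 ± 0.61 (SE), edgeR FDR = 0.00627, then log2 fold change 2.86 ± 0.45 (SE), edgeR FDR = 9.62e-05). E18.5 replicate 3 was far below the other E18.5 libraries for *Dnah5*, and was also the lowest of them for *Foxj1*, *Lrrc23* and *Rsph1*. In *Lrrc23* the P5 libraries held 12.1, 16.2 and 15.1 CPM and the P8 libraries 24.8, 27.8 and 23.4 CPM (E15.5 against E18.5, log2 fold change 2.92 ± 0.44 (SE), edgeR FDR = 0.0017). For *Rsph1*, a radial spoke head protein, the prenatal step was a log2 fold change 1.87 ± 0.41 (SE), edgeR FDR = 0.00841, and for *Ccdc40*, which organises the axonemal ruler, a log2 fold change 1.61 ± 0.36 (SE), edgeR FDR = 0.00983. At P8 the group was highest in replicate 2 for 81 of 92 members and lowest in replicate 1 for 69, with medians of 1.88, 2.46 and 2.06 times the P5 mean in replicates 1, 2 and 3.

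*Sec14l3*, a lipid-transfer protein of airway epithelium, rose before birth (log2 fold change 2.01 ± 0.32 (SE), edgeR FDR = 0.00196) and across it (log2 fold change 5.21 ± 0.32 (SE), edgeR FDR = 3.04e-08) and reached 543, 617 and 688 CPM at P8. *Lrriq1* was counted on 0, 2 and 3 reads at E15.5, and on 59, 70 and 33 reads at E18.5, where replicate 3 was the lowest.

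**Figure D4:**
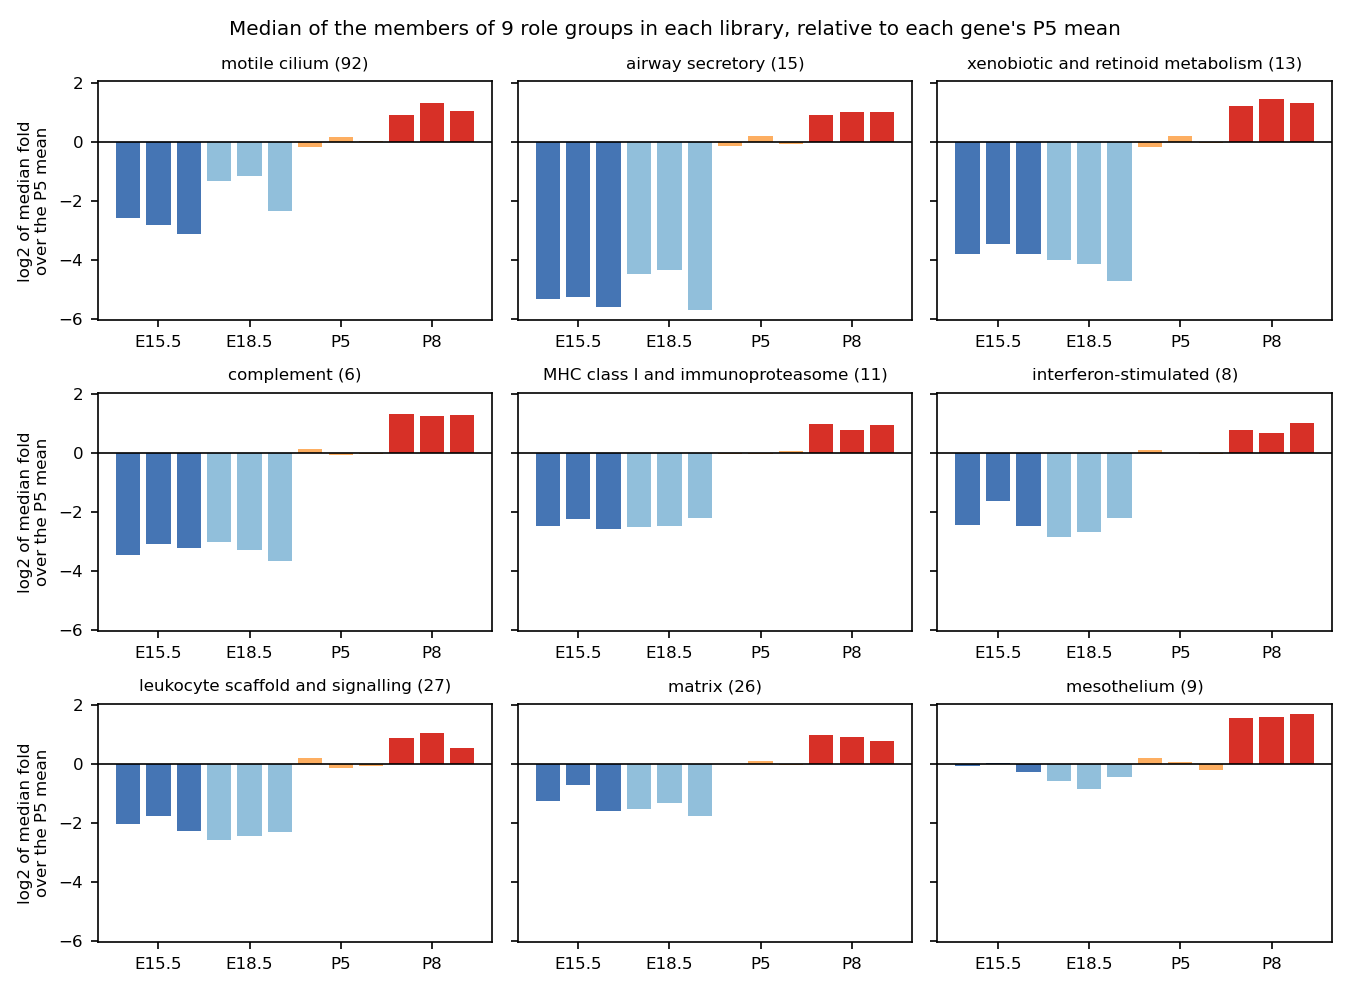
Median over the members of 9 role groups of each library's CPM divided by the gene's P5 mean, on a log2 scale, with 1 bar per library and 3 bars per time-point; numbers in parentheses are members. Motile cilium genes climb from E18.5, while airway secretory genes at E18.5 still overlap E15.5. Leukocyte, MHC class I and complement genes change little before birth, and mesothelial genes are near their P5 level at E15.5.

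Of 37 measured genes of a leukocyte scaffold and signalling list, 27 were members. All 27 rose from E18.5 to P5, beside 72.0% of all members. None rose or fell from E15.5 to E18.5, and their median ratio of P8 to P5 was 1.76. Over the whole list, 37 of 37 tested genes rose from E18.5 to P5 and 0 were called before. The list was drawn up with earlier results of these data known, so its counts are a description. *Ptprc*, the CD45 phosphatase that marks leukocytes, measured 3.20, 6.92 and 3.15 (E15.5), 3.02, 3.31 and 3.92 (E18.5), 56.9, 42.5 and 55.6 (P5), then 91.9, 108 and 72.6 (P8) CPM. The embryonic groups overlapped, the P5 libraries were all above them, and P8 replicate 3 was the lowest of the P8 libraries (log2 fold change 4.01 ± 0.29 (SE), edgeR FDR = 1.01e-07 from E18.5 to P5). *Itgb2*, the beta chain of the leukocyte integrins, was at 96.0 ± 3.54 CPM (SD, n = 3) at P8, after 67.5, 45.4 and 41.5 CPM at P5 (log2 fold change 4.33 ± 0.19 (SE), edgeR FDR = 2.86e-09). *Laptm5*, a lysosomal protein of blood cells, rose with a log2 fold change 2.48 ± 0.13 (SE), edgeR FDR = 1e-08 and reached 186 ± 19.9 CPM at P8.

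The thymocyte and T cell markers of P8 replicates 1 and 2 run beside this group, whose median over the P5 mean was 1.81, 2.05 and 1.46 in P8 replicates 1, 2 and 3. Replicate 3, in which 15 T cell markers summed to 39.8 CPM against 38.1 to 53.4 CPM at P5, was at 1.5 times the P5 mean or more in 13 of the 27. *Rag1*, needed for recombination in developing lymphocytes, was at 77.8 and 155.7 CPM in P8 replicates 1 and 2 and at 4.19 CPM in replicate 3.

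*Csf1r*, the receptor that macrophages need to survive, was present before birth, with 25.4, 29.8 and 26 (E15.5), 22.1, 22.6 and 25.6 (E18.5), 80.3, 67.3 and 63.8 (P5), then 131, 118 and 129.9 (P8) CPM. It rose across birth (log2 fold change 1.68 ± 0.11 (SE), edgeR FDR = 5.25e-08). *Chil3* and *Marco*, both found in alveolar macrophages, were near 0 before birth. *Chil3* measured 0.0968, 0.0590 and 0.0590 (E15.5), 0.0821, 0.115 and 0.0366 (E18.5), 14.3, 12.4 and 8.20 (P5), then 48.1, 37.6 and 22.5 (P8) CPM and *Marco* 21.1, 9.56 and 10.98 CPM at P5 and 37.3, 27.5 and 30.9 CPM at P8. Both rose from E18.5 to P5 (log2 fold changes 7.29 ± 0.45 and 6.2 ± 0.43, edgeR FDR = 3.1e-08 and 8.4e-08), and both were highest in P8 replicate 1. The complement component genes *C1qa* and *C1qc*, expressed by macrophages, did not pass the cutoffs up to P5: *C1qa* read 12.9, 11.7 and 13.9 (E18.5), 14.9, 16.4 and 14.5 (P5), then 29.1, 30.9 and 19.4 (P8) CPM. *Cx3cr1*, a chemokine receptor of monocytes, did not pass the fold cutoff from E18.5 to P5 (log2 fold change 0.69 ± 0.16 (SE), edgeR FDR = 0.00193). Of the 9 monocyte and macrophage members, 5 rose from E18.5 to P5, beside 72.0% of all members. Of 14 measured alveolar macrophage genes, 2 were members, and of 17 monocyte and interstitial macrophage genes, 7.

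The complement list gave 6 members of 15 measured genes, and all 6 rose from E18.5 to P5, beside 72.0% of all members. Of the 15 list genes, all tested, 13 rose over that interval. *C3*, the central component of the cascade, lies at chr17:57203970-57228136. Its values were 3.20, 3.07 and 2.83 (E15.5), 3.80, 2.45 and 2.64 (E18.5), 158, 120.3 and 104 (P5), then 522, 547 and 544 (P8) CPM. The embryonic groups overlapped, and the P8 libraries lay close together, at 4.22 times the P5 mean (log2 fold change 5.52 ± 0.20 (SE), edgeR FDR = 8.34e-10 from E18.5 to P5). *C4b* read 7.69, 6.46 and 6.53 CPM at P5 and 52.4, 54.9 and 60.2 CPM at P8, a ratio of 8.10 (log2 fold change 5.61 ± 0.27 (SE), edgeR FDR = 5.2e-09 from E18.5 to P5). *C4a* and *C4b* are near-identical copies, so reads could be split between them. The proteases *C1s1* and *C1ra* rose with log2 fold changes of 3.61 ± 0.21 and 3.11 ± 0.14 (SE; edgeR FDR = 2.29e-08 and 3.51e-09). The group was even among the P8 libraries, with medians of 2.503, 2.37 and 2.44 times the P5 mean.

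Of 17 measured genes of MHC class I presentation 8 were members, and with the other H2-Q genes the group held 11. From E18.5 to P5, 10 of the 11 rose, beside 72.0% of all members. Of the 17 class I list genes, 16 rose, beside 17.5% of all genes tested. *H2-K1*, a classical class I heavy chain, measured 21.9, 21.9 and 19.6 (E15.5), 24.1, 30.2 and 18.99 (E18.5), 183, 155 and 176 (P5), then 308, 238 and 259 (P8) CPM. The embryonic groups overlapped, and the P5 libraries were all above them (log2 fold change 2.90 ± 0.16 (SE), edgeR FDR = 1.65e-08). *Tap1*, a subunit of the peptide transporter, rose with a log2 fold change 2.14 ± 0.18 (SE), edgeR FDR = 4.08e-07 and stood at 47.9, 37.7 and 49.7 CPM at P8. *Nlrc5*, the transactivator of class I genes, read 0.307, 0.315 and 0.256 (E15.5), 0.164, 0.0574 and 0.0183 (E18.5), 3.56, 2.64 and 3.63 (P5), then 9.97, 8.33 and 9.24 (P8) CPM. It fell from E15.5 to E18.5 (log2 fold change -1.87 ± 0.47 (SE), edgeR FDR = 0.0153), on values of 0.315 CPM or less, and lost that call when E18.5 replicate 2 was left out, and then rose (log2 fold change 5.45 ± 0.41 (SE), edgeR FDR = 1.64e-07). No MHC class II gene of 12 measured was a member. Still, 11 of the 12 rose from E18.5 to P5, and 7 had every P8 library above every P5 library. The H2-Q genes are close copies and their separate values are uncertain.

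Interferon-stimulated members numbered 6 of 25 measured list genes, or 8 with *Gbp5* and *Gbp8*. All rose from E18.5 to P5, beside 72.0% of all members. The core of the interferon-stimulated response element was searched as 2 copies of GAAA with 2 bases between them. It was in the windows of 5 of 14 members of the class I and interferon groups (35.7%), against 32 of all 524 members (6.11%) and 3.99% of all genes with a window. Of the members outside these groups and the motile cilium group, 25 of 440 (5.68%) held it. The motif is in capitals in the 4 windows shown. *Gbp2* and *Gbp5* encode guanylate-binding proteins, *Igtp* an immunity-related GTPase and *Ifit1* a sensor of foreign RNA.
Gbp2, chr3:142620413-142620712, plus strand: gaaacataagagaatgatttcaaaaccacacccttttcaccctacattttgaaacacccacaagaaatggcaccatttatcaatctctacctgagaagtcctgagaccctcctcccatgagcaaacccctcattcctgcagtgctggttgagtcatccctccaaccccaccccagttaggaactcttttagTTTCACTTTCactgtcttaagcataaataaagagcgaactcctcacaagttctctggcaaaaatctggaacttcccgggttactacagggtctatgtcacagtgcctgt
Gbp5, chr3:142496684-142496983, plus strand: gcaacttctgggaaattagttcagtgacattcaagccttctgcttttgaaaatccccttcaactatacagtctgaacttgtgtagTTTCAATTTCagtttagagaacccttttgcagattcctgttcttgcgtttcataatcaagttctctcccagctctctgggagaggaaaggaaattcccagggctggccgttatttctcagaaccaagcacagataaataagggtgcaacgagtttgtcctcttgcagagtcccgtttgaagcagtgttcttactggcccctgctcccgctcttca
Igtp, chr11:58199306-58199605, plus strand: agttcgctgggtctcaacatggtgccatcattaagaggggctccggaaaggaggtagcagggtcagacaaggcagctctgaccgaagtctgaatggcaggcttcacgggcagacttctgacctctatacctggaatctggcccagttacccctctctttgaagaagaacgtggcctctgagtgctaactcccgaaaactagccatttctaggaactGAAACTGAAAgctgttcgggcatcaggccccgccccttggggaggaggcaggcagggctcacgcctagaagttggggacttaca
Ifit1, chr19:34640639-34640938, plus strand: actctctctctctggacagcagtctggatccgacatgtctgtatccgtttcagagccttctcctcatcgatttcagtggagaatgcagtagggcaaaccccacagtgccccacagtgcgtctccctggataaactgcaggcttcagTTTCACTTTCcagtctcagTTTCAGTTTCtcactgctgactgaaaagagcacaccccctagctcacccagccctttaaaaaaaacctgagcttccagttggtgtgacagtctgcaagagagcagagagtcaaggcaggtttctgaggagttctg
Where the motif starts with TTTC, it is on the opposite strand. *Ifit1* measured 0.145, 0.315 and 0.0393 (E15.5), 0.103, 0.134 and 0.238 (E18.5), 4.35, 3.86 and 3.62 (P5), then 5.83, 5.59 and 8.41 (P8) CPM, with overlapping embryonic groups (log2 fold change 4.70 ± 0.46 (SE), edgeR FDR = 1.6e-06 from E18.5 to P5). *Irf7*, a transcription factor of the interferon response, rose with a log2 fold change 2.99 ± 0.33 (SE), edgeR FDR = 4.62e-06, and *Gbp2* with a log2 fold change 2.20 ± 0.25 (SE), edgeR FDR = 5.8e-06. The remaining list genes were not members; 22 of 24 tested genes of the list rose from E18.5 to P5, and 13 of its genes had every P8 library above every P5 library.

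Xenobiotic and retinoid metabolism gave 13 members of 28 measured genes, with 11 rising across birth, beside 72.0% of all members. Over the whole list, 22 genes rose across birth and 2 fell. *Cyp2f2*, the naphthalene-metabolising P450 of club cells, measured 7.44, 4.68 and 3.34 (E15.5), 10.4, 8.58 and 6.28 (E18.5), 148, 193 and 161 (P5), then 389, 456 and 416 (P8) CPM. Embryonic groups overlapped, and the P5 libraries were all above them (log2 fold change 4.4 ± 0.24 (SE), edgeR FDR = 1.56e-08). The P8 to P5 ratio was 2.51. *Aldh1a1*, which makes retinoic acid, went from 109.7, 149 and 125 CPM at P5 to 239, 304 and 253 CPM at P8 (log2 fold change 2.36 ± 0.12 (SE), edgeR FDR = 5.97e-09 from E18.5 to P5). *Gsta3*, a glutathione transferase, had fallen from E15.5 to E18.5 (log2 fold change -1.35 ± 0.35 (SE), edgeR FDR = 0.0192), a call lost in the fits without E15.5 replicate 1 or 2 or E18.5 replicate 2 or 3, and rose across birth (log2 fold change 5.44 ± 0.34 (SE), edgeR FDR = 3.69e-08). *Cyp2s1* rose with a log2 fold change 2.22 ± 0.17 (SE), edgeR FDR = 2.07e-07. *Por*, the reductase that supplies electrons to P450 enzymes, rose with a log2 fold change 1.03 ± 0.06 (SE), edgeR FDR = 2.82e-08 and held 169.6, 186 and 174 CPM at P8; it was under the fold cutoff without E18.5 replicate 3 or P5 replicate 2. *Sult1d1*, a sulfotransferase, had no reads at E18.5; set against a floor of 3 reads over that group, P5 was at least 48.4-fold higher.

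Matrix genes were expressed before birth and differed in path. Of 26 matrix members, 17 rose from E18.5 to P5, beside 72.0% of all members. Before that, 1 had risen and 2 had fallen. *Eln*, the elastin of septal fibres and the member with the highest CPM at P8, lies at chr5:134702593-134747323 and measured 651, 839 and 558 (E15.5), 1037, 968 and 789.6 (E18.5), 2297, 3045 and 2257 (P5), then 5424, 6845 and 5872 (P8) CPM. Its embryonic groups overlapped, it rose across birth (log2 fold change 1.53 ± 0.16 (SE), edgeR FDR = 2.95e-06), and the P8 mean of 6047 ± 727 CPM (SD, n = 3) was 2.39 times that of P5. Among 19 measured genes of elastic fibres and collagens, *Eln*, *Col3a1* and *Col6a5* were members. The lysyl oxidase *Lox*, which crosslinks elastin, held 674.1 ± 80.7 CPM on E18.5, stood on P8 with 156.0 ± 10.8 CPM and was not a member, and *Fbn1*, a microfibril protein, was at 285.4 ± 9.57 CPM at P5 and 246.9 ± 12.2 CPM at P8.

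*Col3a1* read 1800, 1604 and 1802 (E15.5), 1505, 1447 and 1543 (E18.5), 1551, 1744 and 1583 (P5), then 2436, 2558 and 2499 (P8) CPM, so that the E18.5 libraries were below those of E15.5 and P8 was above all others. *Col1a2* measured 1122 ± 117, 1010 ± 41.5, 1095 ± 76.5 and 1709 ± 114 CPM (SD, n = 3) in the order of age from E15.5, and neither gene passed the cutoffs before P8. Of 43 measured collagen chains, 4 were members and 19 had every P8 library above every P5 library. *Col1a1*, their partner, was higher at P8 (1302 ± 215.9 CPM) than at P5 (664.7 ± 69.8 CPM) but overlapped E15.5.

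*Fbln2*, a matrix glycoprotein, fell and rose. Its values were 57.3, 69.0 and 28.1 (E15.5), 20.7, 15.9 and 19.6 (E18.5), 82.3, 90.5 and 80.0 (P5), then 146, 190.3 and 140.2 (P8) CPM, with E18.5 below all other groups, and both steps were called (log2 fold change -1.45 ± 0.25 (SE), edgeR FDR = 0.00282, then log2 fold change 2.25 ± 0.25 (SE), edgeR FDR = 5.32e-06). *Cdh13*, a cadherin without a cytoplasmic domain, had the same order (log2 fold change -2.22 ± 0.49 (SE), edgeR FDR = 0.00861, then log2 fold change 3.63 ± 0.50 (SE), edgeR FDR = 2.94e-05), although its E15.5 values of 4.92, 7.17 and 1.08 CPM overlapped those of E18.5. Among the embryonic libraries, both genes were highest in E15.5 replicates 1 and 2, the libraries with cardiac muscle RNA at 1276 and 1581 CPM against 68.0 CPM in replicate 3. The part of cardiac muscle RNA in these falls was not tested. Without replicate 1 or replicate 2 in turn, both stayed called, at log2 fold changes of -1.37 and -1.18 for *Fbln2* and -2.13 and -1.68 for *Cdh13*. *Pkhd1l1* and the AMPA receptor subunit gene *Gria1* fell before birth too (log2 fold changes -1.21 ± 0.33 and -2.11 ± 0.58, edgeR FDR = 0.0217 and 0.0239), and both calls were lost in 2 or more fits without 1 library.

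The insulin-like growth factor binding protein gene *Igfbp5* dipped at P5. It measured 538, 527 and 468 (E15.5), 530.0, 413 and 489.9 (E18.5), 255, 289 and 258 (P5), then 635, 656 and 690.3 (P8) CPM. All P5 libraries were below all embryonic libraries, the P8 libraries were above all others, and the step from E18.5 to P5 was a log2 fold change -0.75 ± 0.09 (SE), edgeR FDR = 9.27e-06, short of the fold cutoff. In all, 29 members were lower at P5 than at both embryonic means. Among them were *Dusp6*, a phosphatase of ERK, with means of 80.4 ± 9.10, 74.4 ± 2.98 and 134 ± 19.1 CPM at E18.5, P5 and P8, and *Sulf1*, a heparan sulfatase, whose P8 libraries (84.6, 92.3 and 92.6 CPM) lay above those of E15.5 (75.8, 80.5 and 64.7 CPM). *Slc9a3r1*, *Myrf* and *Kank1* had the same order.

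**Figure D5:**
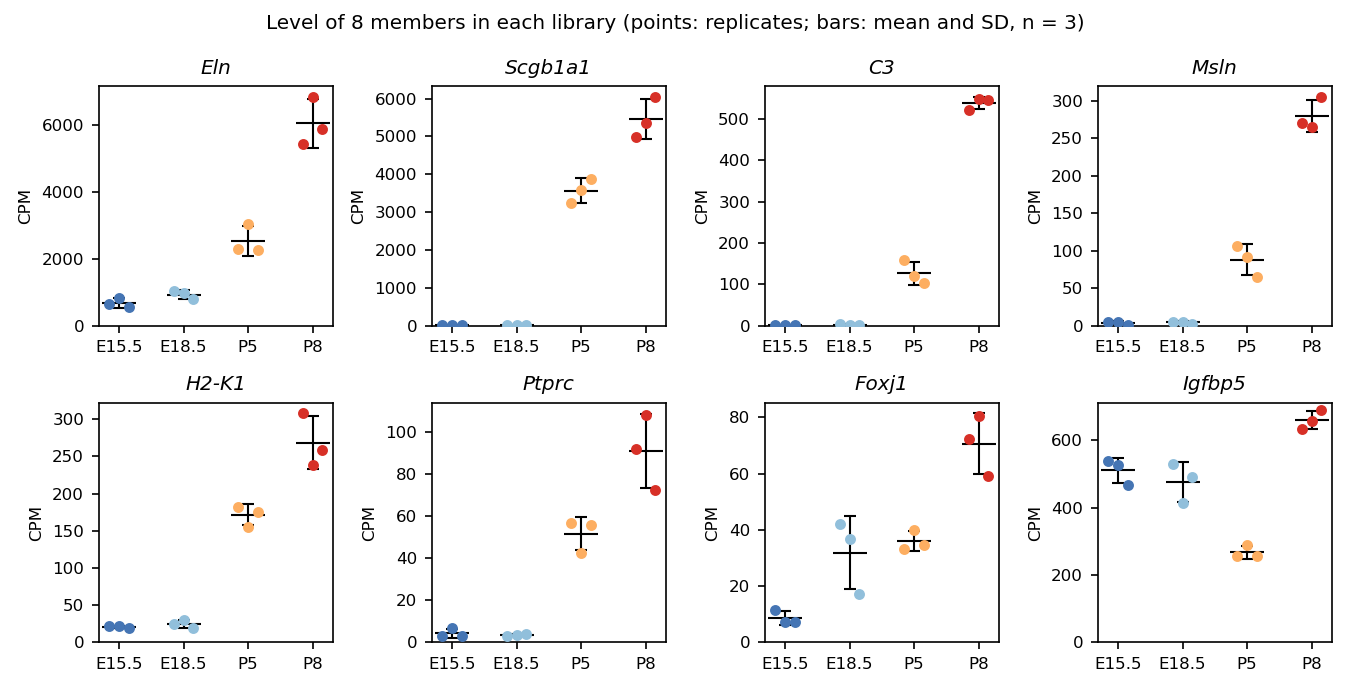
CPM of 8 members in each library (points, 3 per time-point) with the mean and SD (n = 3), on linear axes that start at 0. *Igfbp5* dips at P5, *Foxj1* is already up at E18.5, and the other 6 have their main steps after E18.5.

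Of 14 measured genes of a mesothelium list, 9 were members. This list too was drawn up with earlier results of these data known, so its counts are a description. The list summed to 243.1 to 286.2 CPM at E15.5, then to 177.5 to 210.9 (E18.5), 239.9 to 335.2 (P5) and 816.0 to 837.2 (P8) CPM. Of the 9 members, 3 rose from E18.5 to P5, beside 72.0% of all members, and 2 had fallen before birth. *Msln*, mesothelin, measured 4.70, 5.58 and 1.20 (E15.5), 5.83, 5.61 and 3.21 (E18.5), 106, 92.2 and 65.5 (P5), then 270.4, 264 and 304 (P8) CPM and rose across birth (log2 fold change 4.27 ± 0.39 (SE), edgeR FDR = 8.12e-07). *Upk3b*, a uroplakin of mesothelium, read 68.4, 74.9 and 58.2 (E15.5), 37.8, 31.0 and 36.5 (E18.5), 53.2, 46.8 and 31.9 (P5), then 129.6, 138 and 144 (P8) CPM. Its E18.5 libraries were below those of E15.5, its P5 libraries overlapped E18.5, and its P8 to P5 ratio was 3.13. *Lrrn4* and the transcription factor gene *Bnc1* fell from E15.5 to E18.5 (log2 fold changes -1.17 ± 0.22 and -1.27 ± 0.36, edgeR FDR = 0.00411 and 0.0259). Both calls were lost without E18.5 replicate 2, and that of *Bnc1* also without E15.5 replicate 1 or 2. For *Bnc1* the values were 6.00, 7.04 and 3.81 (E15.5), 2.89, 1.47 and 2.60 (E18.5), 3.24, 1.47 and 1.36 (P5), then 8.60, 9.03 and 8.20 (P8) CPM, and the fall from E15.5 to P5 was a log2 fold change -1.36 ± 0.36 (SE), edgeR FDR = 0.00403. *Wt1*, the transcription factor of the list, was no member because P8 (6.91 ± 0.543 CPM) lay under E15.5 (11.7 ± 3.01 CPM), although it was above P5 (2.06 ± 0.522 CPM).

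Genes of cornified or stratified epithelium gave 10 members, of which 8 rose from E18.5 to P5, beside 72.0% of all members. P8 replicate 3, the P8 library lowest in squamous markers, was the lowest P8 library for 8 of the 10. *Evpl* and *Ppl*, the plakins of the cornified envelope, were at 56.9, 51.3 and 28.8 CPM and 63.9, 60.3 and 33.1 CPM in P8 replicates 1, 2 and 3, against P5 means of 14.1 ± 0.428 and 20.8 ± 0.497 CPM. Replicate 3 was lowest in both and above the P5 libraries in both. *Scel*, sciellin, was even at 35.6, 33.7 and 31.7 CPM and rose across birth (log2 fold change 3.19 ± 0.14 (SE), edgeR FDR = 2.75e-09).

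The largest ratios of P8 to P5 belonged to liver-type genes. *Serpina1b*, *Apoa1* and *Ahsg*, which encode plasma proteins of the liver, had ratios of 82.7, 62.8 and 52.5. *Serpina1b* was counted on 0, 1 and 5 reads at P5 and on 39, 350 and 121 reads at P8, and it was the 1 member under the filter of the test. *Ahsg* read 0.241, 0.124 and 0.411 CPM at P5 and 3.12, 26.7 and 10.9 CPM at P8, in the order of *Alb*, the albumin gene, which is no member (7.31, 70.7 and 22.7 CPM). These genes were highest in P8 replicate 2 and lowest in replicate 1.

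*Mbp*, myelin basic protein, did not pass the cutoffs up to P5, with means of 23.6 ± 0.838, 28.8 ± 1.85 and 29.2 ± 1.21 CPM and stood at 70.9, 80.0 and 43.4 CPM at P8. The lowest P8 value was in replicate 3.

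Counts for vessel and lipid lists are set beside the whole table, in which 690 of 16152 genes were members. *Vwf*, von Willebrand factor of larger vessels, was the 1 member among 14 genes of artery, vein and lymphatic endothelium, with 30.2, 28.5 and 31.7 (E15.5), 24.7, 24.9 and 23.3 (E18.5), 132, 121 and 103 (P5), then 183, 186 and 177 (P8) CPM. E15.5, E18.5 and P5 did not overlap (log2 fold change 2.38 ± 0.10 (SE), edgeR FDR = 1.6e-09 from E18.5 to P5). None of 15 capillary endothelium, 14 type 2 alveolar, 15 smooth muscle and pericyte, 16 cell cycle or 9 erythroid genes was a member. Lists of this size would hold few members at the share of the whole table, so these counts are not read as a result. *Lpl*, lipoprotein lipase, was the 1 member of 19 lipid genes and read 196, 263 and 139 CPM at P8, where the fat list summed to 567.8, 1114 and 28.0 CPM.

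Among 20 transcription factors in the set, 12 rose from E18.5 to P5, beside 72.0% of all members. *Klf2*, a factor of endothelium and lymphocytes, measured 10.2, 15.1 and 14.1 (E15.5), 12.2, 24.3 and 24.5 (E18.5), 82.0, 81.2 and 85.9 (P5), then 132, 127 and 119.7 (P8) CPM (log2 fold change 2.12 ± 0.22 (SE), edgeR FDR = 2.16e-06), and all groups from E18.5 on were separate. *Nr1d1*, a repressor of the circadian clock, rose across birth (log2 fold change 2.48 ± 0.21 (SE), edgeR FDR = 5.16e-07) and stood at 11.6, 12.6 and 16.04 CPM at P8. *Per1*, another clock gene, was lower in each P8 library than in each P5 library (82.1 ± 10.3 CPM at P5 and 28.5 ± 2.65 CPM at P8) and was no member; the hour of collection is not given in the sources used here. Of 18 immediate early genes 5 were members, and *Dusp1*, a phosphatase of that response, rose across birth (log2 fold change 1.24 ± 0.14 (SE), edgeR FDR = 5.84e-06) and read 72.9, 82.4 and 96.6 CPM at P8.

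Of 21 receptors 15 rose across birth, as did 6 of 11 secreted signals, beside 72.0% of all members. *Gdnf*, the ligand of the receptor component *Gfra1*, rose (log2 fold change 2.78 ± 0.29 (SE), edgeR FDR = 2.92e-06) from 0.472, 0.536 and 0.238 to 2.54, 2.68 and 2.84 CPM and reached 4.27, 3.66 and 4.98 CPM. *Gfra1*, itself a member, read 14.9, 14.3 and 14.3 (E15.5), 11.7, 9.17 and 13.8 (E18.5), 6.97, 9.46 and 9.30 (P5), then 17.1, 18.7 and 15.6 (P8) CPM, with P5 below E15.5. *Csf1*, the ligand of *Csf1r*, measured 15.6 ± 0.910, 24.4 ± 1.93 and 37.7 ± 4.38 CPM at E18.5, P5 and P8. The Wnt ligands *Wnt4* and *Wnt6* were members at 17.6, 16.4 and 12.1 and 3.39, 2.99 and 3.19 CPM at P8.

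Members with the most even P8 libraries, of those at 10 CPM or more, were *Hspa2*, *Ncf4*, *Daglb*, *Plcg2*, *Igfbp6* and *Myo1f*. *Igfbp6* read 13.3, 14.6 and 15.3 CPM at P5 and 43.9, 42.4 and 42.6 CPM at P8. *Ncf4*, *Plcg2* and *Myo1f* act in leukocytes. Over the whole set the median coefficient of variation among P8 replicates was 16.7%, against 9.35% for all genes, and at E15.5 it was 28.1% against 8.77%.

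At the edges of the rule, *Apobr*, *Npas2*, *Flad1*, *Psmb8* and *Agr3* were just inside the limit of 1.5-fold, and *Adamts5*, *Ltbp4*, *Pisd-ps2*, *Gbp4* and *Slamf1* just outside it. The 5 members nearest 2 CPM were *Efhb*, *Ccdc155*, *Klhdc9*, *Spata17* and *Serpina3f* at 2.01 to 2.08 CPM, next to *Caps2*, *Ankrd35*, *Gbp10*, *Tpbgl* and *Cyp3a13* just under 2 CPM. Near the limit against replicate 3 stood *Jakmip1*, *Cd177*, *Acp5*, *Mall* and *Cyp2a5* at 2.92 to 2.99 and, outside it, *H2-T10*, *Cpn2*, *Alb*, *Prg4* and *Dnajc6* at 3.04 to 3.16.

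Some members lay side by side on the genome. In the order of the count table's genes, 44 runs of neighbours held 100 members, and 9 runs had 3 or more. *Psmb9*, *Tap1*, *Psmb8* and *Tap2*, of antigen processing, occupied chr17:34181987-34216321 in mm10 (GENCODE vM21), and 4 H2-Q genes chr17:35394126-35474563. *C1rl*, *C1ra*, *C1s1* and *C1rb*, proteases of complement, occupied chr6:124493113-124581171, and *Tnxb*, *C4b* and *C4a* chr17:34670535-34823464. *Pifo*, *Chia1* and *Chil3*, from 3 different role groups, stood together at chr3:105996957-106167564, and *Cyp2b10*, *Cyp2a5* and *Cyp2f2* at chr7:25897620-27133660. Close copies make up much of these runs, and whether the counting used strand is not stated, so reads of overlapping genes may be shared.

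Splicing was a readout the rule did not use. Of the 690 members, 4 (0.58%, against 2.19% of the genes in the count table) had one of the 460 events that the study had selected for a change in percent spliced in (PSI) in these libraries. The study kept only events with enough reads, and the members' median P8 level was 8.58 CPM against 21.1 CPM for all genes. The lower share is therefore not read as a trait of the members. The retained intron of *Sema4d*, a semaphorin, was at 0.757 ± 1.31% (E18.5) and 13.8 ± 10.8% (P5; SD, n = 3), with P5 replicate 2 at 1.49%, and its P8 libraries held 28.1%, 18.1% and 31.8%. An alternative exon of *Gk*, glycerol kinase, was at 43.2 ± 7.60% (E18.5), 14.9 ± 3.54% (P5) and 14.5 ± 11.5% (P8). The intron of *Slc27a1*, a fatty acid transporter, was at 22.2 ± 11.6%, 7.72 ± 1.67% and 4.31 ± 1.65% at the same time-points, and an exon of *Tekt1*, a tektin of the axoneme, was at 72.0 ± 7.07%, 85.7 ± 7.04%, 99.0 ± 1.73% and 95.5 ± 1.76% in the order of age from E15.5. Each value rested on 20 to 167 reads. As the events were selected on these libraries, their shifts are given without a test.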

How the data were processed

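RNA from whole lungs was sequenced in 12 libraries, 3 per time-point. The authors aligned reads to mm10 with TopHat2 2.1.1 and Bowtie2 2.3.4 and counted them on Gencode genes with HTSeq 0.10.0, and the deposited counts were used unscaled. The deposited CPM values, which the authors made by dividing counts by mapped reads, served for the rule and for the levels. The deposited splicing values are percent spliced in, per the authors' VAST-TOOLS output.

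The members and the gene lists were chosen with earlier results of these data known. Genes at 1 CPM or more in 3 libraries (15994) were tested by edgeR 4.0.16 in R 4.3.3, with TMM scaling and a quasi-likelihood fit of all 12 libraries, and were called at an absolute log2 fold change above 1 with a Benjamini-Hochberg FDR under 0.05. On simulated data for E18.5 to P5, with 15994 genes, 177 of 200 genes changed by 1.5 on the log2 scale were recovered, with 5 false calls. Named genes were those with the highest P8 level, the largest ratios or changes, the leading members of each list, those nearest each limit, the most even, those lowest at P5, those with a splicing event, and leading transcription factors, receptors and ligands. Other scalings, filters, DESeq2 1.42.0, a replicate block and the omission of each library were tried. Counting error alone does not cover differences between litters.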

Additional observations from a re-analysis of the deposited data

How the results depend on the processing

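The number of members was 690, became 304 with a ratio of at least 2 and ranged from 628 to 1097 when 1 library was left out. The 1097, of which 655 were among the 690, came without P8 replicate 3. Leaving out that library also takes away the limit against it, so this count is not of the same rule. From E15.5 to E18.5, 104 members were called, against 30 in a fit of the 2 time-points only, 167 at an FDR under 0.05 alone and 66 to 136 with 1 library left out, the lowest without E18.5 replicate 2. From E18.5 to P5 the count of 497 ranged from 474 to 499, and from E15.5 to P5 the count of 506 ranged from 498 to 516. Replicate numbers did not pair the samples: deviations of same-numbered libraries correlated at -0.343 to 0.301 over 18 pairs, and those of other libraries at -0.312 to 0.267 over 36. With the replicate number as a block the counts were 100, 500 and 510. Of 1210 alternatives for 64 changes of single genes, 22 lost the call, 6 gained it and 0 reversed; the causes were not tested. Depth limits genes of few reads before birth.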
